A study of Eucalyptus urophylla with 24 samples.

Results

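The genes described here code for the enzymes that build and remodel pectin in *Eucalyptus urophylla*. They were taken from the deposited gene table by their annotation, as every gene whose description names a pectinesterase, a polygalacturonase, a pectate lyase, a galacturonosyltransferase or a pectin acetylesterase. The rule found 77 genes among 26033, and 74 of them lie on the 11 chromosomes. Positions are given below as in the deposited table, whose *E. grandis* build is not given in the sources used here. By their descriptions they fall into 9 classes, namely 11 galacturonosyltransferases (GAUT), 7 galacturonosyltransferase-like proteins (GATL), 9 pectinesterases, 1 pectinesterase with an inhibitor domain, 8 pectin acetylesterases, 17 polygalacturonases, 7 exopolygalacturonases, 5 polygalacturonase beta subunits and 12 pectate lyases. The rule itself uses no measured value. The annotation sets its limits, because 47 further genes carry an enzyme number found among the members under another description, and 9332 genes are described as hypothetical proteins alone.

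Pectin is the gel-like polysaccharide between plant cellulose fibrils, and its main chain, homogalacturonan, is a string of galacturonic acid units. Galacturonosyltransferases join these units in the Golgi, where most of them also receive methyl groups and some receive acetyl groups. After secretion into the wall, pectinesterases remove the methyl groups and pectin acetylesterases the acetyl groups, and the bared chain can then be bridged by calcium or be cut by polygalacturonases, which hydrolyse it, and by pectate lyases, which split it by elimination. In leaves these enzymes are known for their part in cell expansion, in the parting of cells and in organ shedding.

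RNA sequencing covered 8 groups of 3 libraries each. They were terminal buds, young leaves (juvenile leaves in the library labels), mature leaves and senescent leaves of triploid *E. urophylla*, which was obtained by sexual polyploidization, and the same 4 stages of the diploid control. All samples come from a single species with no treatment, and no tree age is given in the sources used here. The study's methods say that the organs were taken from triploid and diploid clones, but not which clone or tree gave each library. The library labels carry a single code for each ploidy, whose meaning is not given in the sources used here. An effect of ploidy and any other difference between the trees thus cannot be told apart, and p-values reflect only the variation among libraries, which may be technical. In whole organs of this kind, fewer cells of a type and less RNA per cell cannot be told apart.

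Expression was measured as FPKM, the number of fragments normalized to transcript length and library size, and the total read count of the 22 libraries with counts was 38395755 to 64400745. A gene was tested where its mean was at least 0.5 FPKM over the 24 libraries, which 19174 genes and 58 of the 77 members reached. The test was limma on log2(FPKM + 1), so that log2 differences understate the change of genes near 0, and a call means a p under 0.05 after Benjamini-Hochberg adjustment over all genes tested. The stage labels were checked against marker genes. The 4 genes of dividing cells summed to 168 FPKM in triploid terminal buds, against 145 FPKM in diploid terminal buds. They summed to 177 and 151 FPKM in triploid and diploid young leaves, so they did not set buds apart from young leaves. In senescent leaves of either ploidy their sum was under 1 FPKM. Of 29 photosynthesis genes 27 were lower in senescent than in mature leaves in the triploid and 26 in the diploid, where 32.1% and 32.4% of all genes were. Of 8 tested senescence-associated genes 6 were higher at this step in the triploid and 4 in the diploid, where 29% and 25.3% of all genes were. Not all of the 8 rose. Eucgr.F02776 averaged 4.67 FPKM in triploid senescent leaves, against 51.6 FPKM in triploid mature leaves, and 8.38 against 57.6 FPKM in the diploid. Eucgr.K01106 averaged 1.78 against 10.3 FPKM in the diploid (both were chosen after their values were seen). Library 3 of diploid terminal buds and libraries 1 and 3 of diploid young leaves deviated from their group means more than the other libraries did, with an SD of the log2 deviations of 0.320, 0.251 and 0.237, against 0.137 to 0.223 in the others. A scaling of the libraries to a common median ratio, applied as an alternative, moved the median log2 difference of all genes between the ploidies to −0.035 (−0.184 unscaled) in terminal buds, to −0.025 (0.201 unscaled) in mature leaves and to −0.004 (0.168 unscaled) in senescent leaves, so many counts below are also given after scaling.

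The members as a whole had their lowest summed level in senescent leaves, while the stage with the highest sum depended on the scaling. The summed level was 1138 ± 36.2, 1424 ± 52.7, 1003 ± 25.7 and 649 ± 7.73 FPKM at the 4 stages of the triploid, in order of age (SD, n = 3 each). In the diploid it was 1117 ± 8.51, 1312 ± 144, 1168 ± 81.9 and 528 ± 29.9 FPKM, so that young leaves stood highest in both. After scaling the sums were 1254 ± 34.1, 1216 ± 39.3, 965 ± 38.1 and 607 ± 17.3 FPKM in the triploid, and 1074 ± 88.9, 1127 ± 68.3, 1438 ± 89.5 and 621 ± 52.5 FPKM in the diploid, with terminal buds highest in the triploid and mature leaves in the diploid. The classes did not follow one course (plot of summed FPKM by class). Pectate lyases and polygalacturonases were most abundant in the young organs, pectinesterases and pectin acetylesterases in mature leaves, and exopolygalacturonase in senescent leaves. Single genes carried much of some sums. In diploid mature leaves 39.1% of the summed level came from the pectinesterase gene Eucgr.C00760, and in diploid senescent leaves 34.4% came from the polygalacturonase gene Eucgr.D01729.

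**Figure D1:**
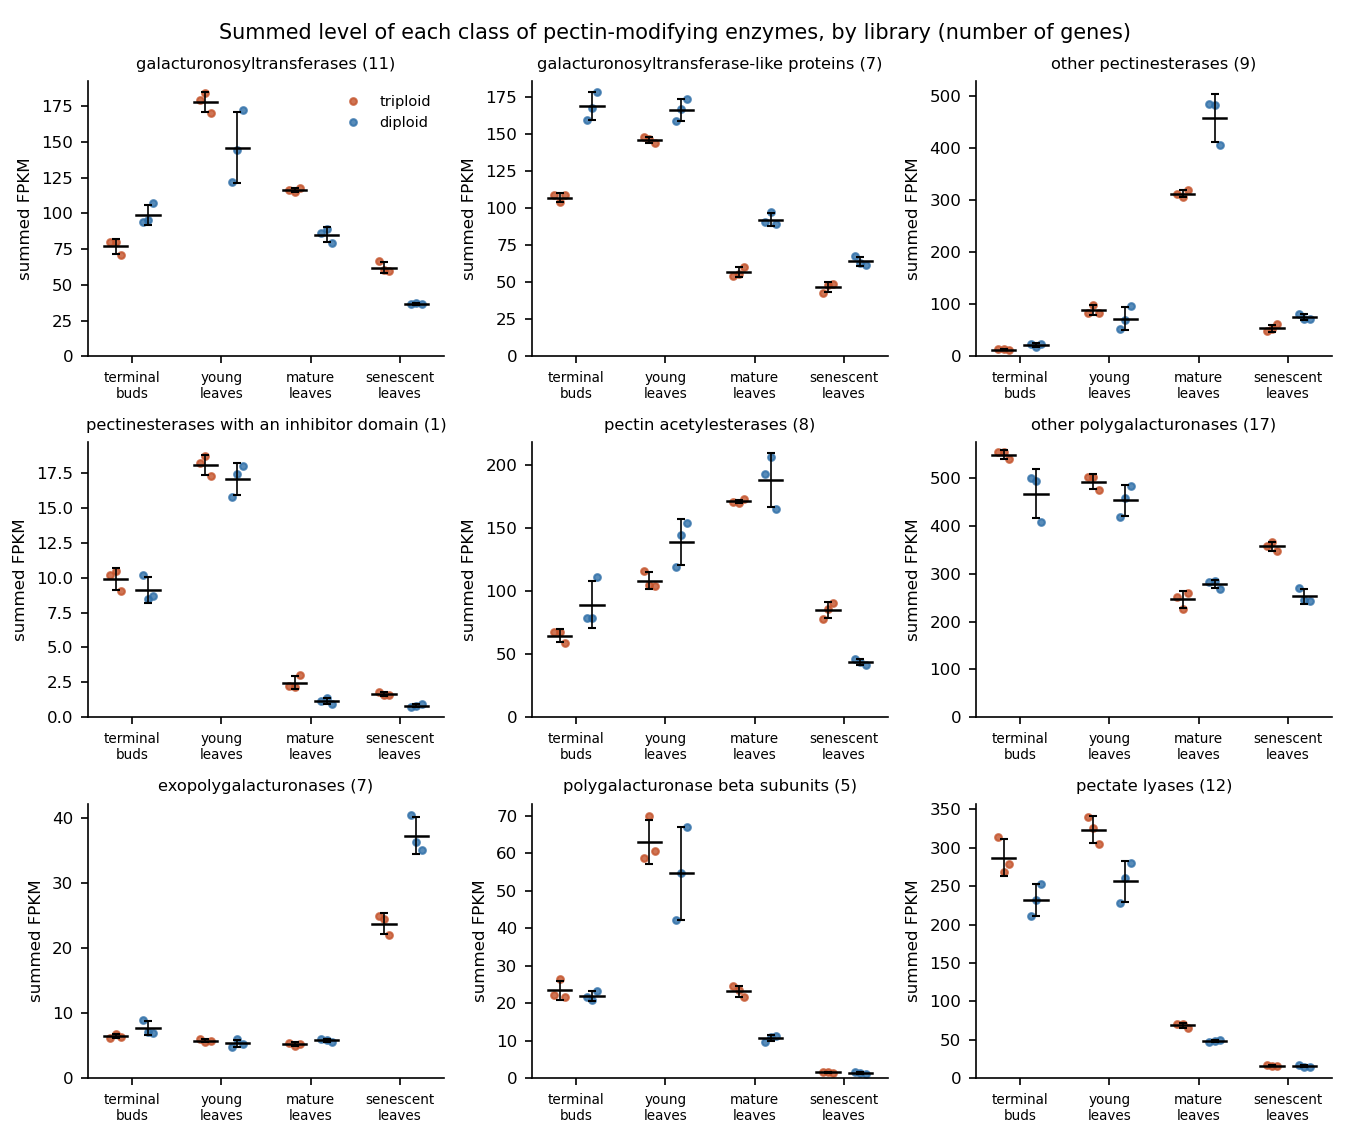
Summed FPKM of each of the 9 enzyme classes in every library, with the mean and SD of 3 libraries, at the 4 stages and with the triploid left of the diploid. Pectate lyases stand at 324 FPKM in triploid and 256 FPKM in diploid young leaves and at 16.4 and 15.5 FPKM in the senescent leaves, while the pectinesterases peak in mature leaves at 312 and 458 FPKM.

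Of the 58 members tested, 34 had their highest mean in young leaves in the triploid and 30 did in the diploid, and 41 had the same highest stage in both ploidies. Between terminal buds and young leaves, 40 members were higher in triploid young leaves and 7 lower, which is 69% and 12.1% of the members, where 45% and 23.8% of all genes tested were higher and lower (68.8% either way). In the diploid the same step gave 27 higher and 9 lower members (46.6% and 15.5%), where all genes gave 33.4% and 26.6% (60.1% either way). After scaling, the counts were 29 higher and 12 lower in the triploid and 21 and 14 in the diploid. Of all genes 31.1% and 35.4% were then higher and lower in the triploid, and 26.6% and 32.4% in the diploid. At the next steps more members were lower than higher. In mature against young leaves, 6 members were higher and 39 lower in the triploid (10.3% and 67.2%, all genes 26.9% and 42.8%, 69.7% either way), and 11 were higher and 38 lower in the diploid (19% and 65.5%, all genes 21% and 55.6%, 76.6% either way), or 7 and 34 and 14 and 34 after scaling. Over all genes the scaled shares were 32.5% and 36.8% in the triploid and 32.2% and 38% in the diploid. In senescent against mature leaves, 7 members were higher and 37 lower in each ploidy (12.1% and 63.8%), where 29% and 32.1% of all genes were higher and lower in the triploid (61.1% either way) and 25.3% and 32.4% in the diploid (57.7%). After scaling, 28% and 33.6% of all genes were higher and lower in the triploid, and 24.3% and 36% in the diploid. The scaled class counts below stand against these scaled shares. The median log2 difference of the members at this last step was −0.78 in the triploid and −0.77 in the diploid, against −0.048 and −0.075 over all genes. By gene, 26 members were higher in young leaves than in terminal buds in both ploidies, 33 were lower in mature than in young leaves in both, and 34 were lower in senescent than in mature leaves in both. The share of all genes called alike in both ploidies was not worked out, so these counts cannot be read as particular to the members.

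**Figure D2:**
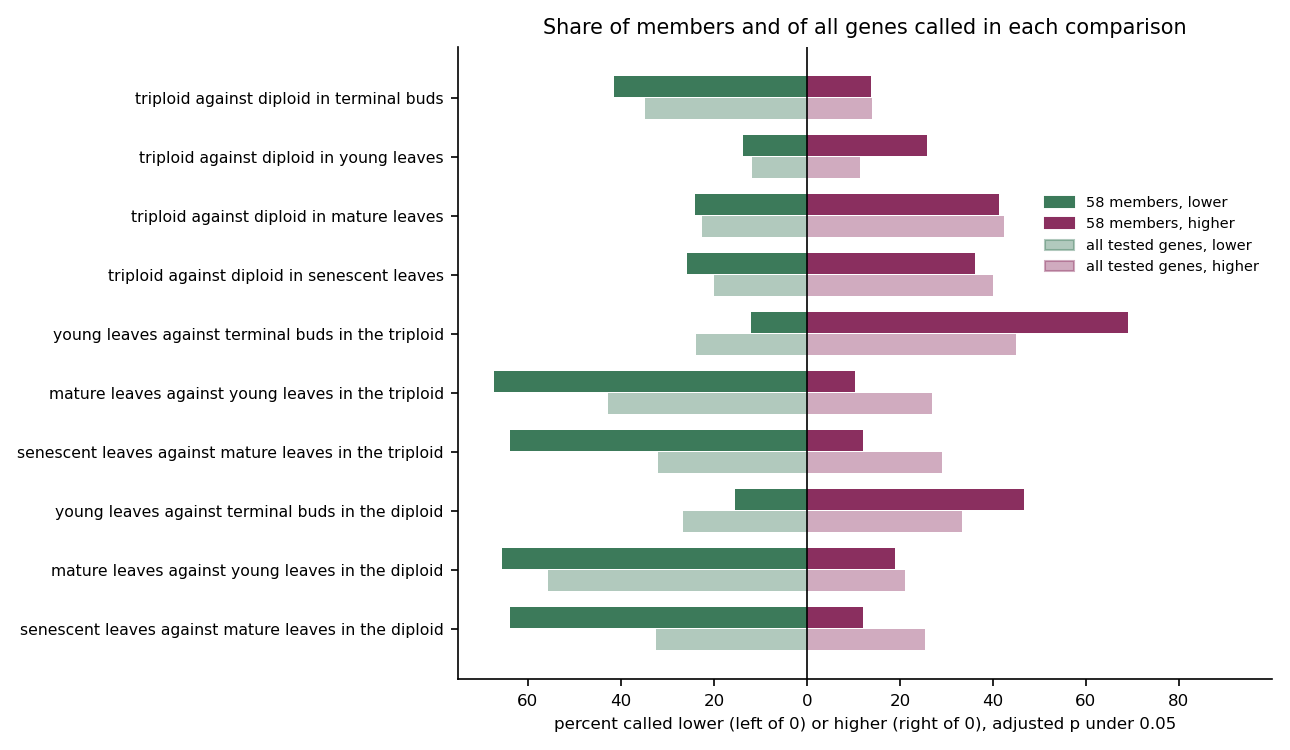
Percent of the 58 tested members and percent of all 19174 tested genes that were called lower or higher (limma, adjusted p under 0.05) in the 4 ploidy comparisons and the 6 steps between stages. At the step from mature to senescent leaves 63.8% of the members were lower in each ploidy, against 32.1% of all genes in the triploid and 32.4% in the diploid.

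Differences between the ploidies ran in both directions at every stage. In terminal buds 8 members were higher and 24 lower in the triploid (13.8% and 41.4%), where 14% and 34.9% of all genes were higher and lower (48.8% either way), and after scaling the members stood at 14 higher and 17 lower. In young leaves 15 were higher and 8 lower (25.9% and 13.8%, all genes 11.4% and 11.9%, 23.4% either way), with 12 and 9 after scaling. This count rested on small differences, since edgeR on the read counts called 7 higher and 6 lower and leaving out triploid young leaf library 1 left 14 calls. In mature leaves 24 members were higher and 14 lower (41.4% and 24.1%, all genes 42.4% and 22.6%, 64.9% either way), with 16 each way after scaling. In senescent leaves 21 were higher and 15 lower (36.2% and 25.9%, all genes 40.1% and 20%, 60.1% either way), with 16 higher and 20 lower after scaling. After scaling, 21.7% and 24.4% of all genes were higher and lower in terminal buds and 10.6% and 12.7% in young leaves. These scaled shares were 30.1% and 33.8% in mature leaves and 29.4% and 30.4% in senescent leaves, and the scaled class counts below stand against them. The unscaled share of members called thus lay near that of all genes in mature and senescent leaves. No member was higher in the triploid at all 4 stages, 3 were lower at all 4 and 17 were higher at one stage and lower at another. The matching shares over all genes were not worked out, so these counts cannot be read as particular to the members. Without the 3 libraries that stood apart, 34, 18, 40 and 39 members were called at the 4 stages in order of age. Marker genes differed between the ploidies as well. Of 29 photosynthesis genes, all tested, 26 were lower and none higher in triploid senescent leaves (27 lower after scaling). Of all genes 20% were lower and 40.1% higher there (30.4% lower after scaling). The photosynthesis genes summed to 6267 to 7069 FPKM in triploid senescent leaves, against 11509 to 12319 FPKM in diploid senescent leaves. The senescence-associated list, of which 8 of 14 genes were tested and 1 was at 0 throughout, split into 4 higher and 4 lower at this stage (2 and 4 after scaling). Its sum of 7389 to 8005 FPKM in triploid senescent leaves, against 29292 to 32916 FPKM in diploid senescent leaves, differed through one gene, Eucgr.D00494, which averaged 5339 FPKM in the triploid, against 28745 FPKM in the diploid, whereas Eucgr.H01103 averaged 1594 against 998 FPKM (both were chosen after their values were seen). A floral homeotic list, of which 4 of 5 genes were tested, had 2 genes higher and 1 lower in triploid terminal buds and summed to 227 to 237 FPKM in triploid terminal buds, against 102 to 121 FPKM in diploid terminal buds. Their part in the member differences was not tested.

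**Figure D3:**
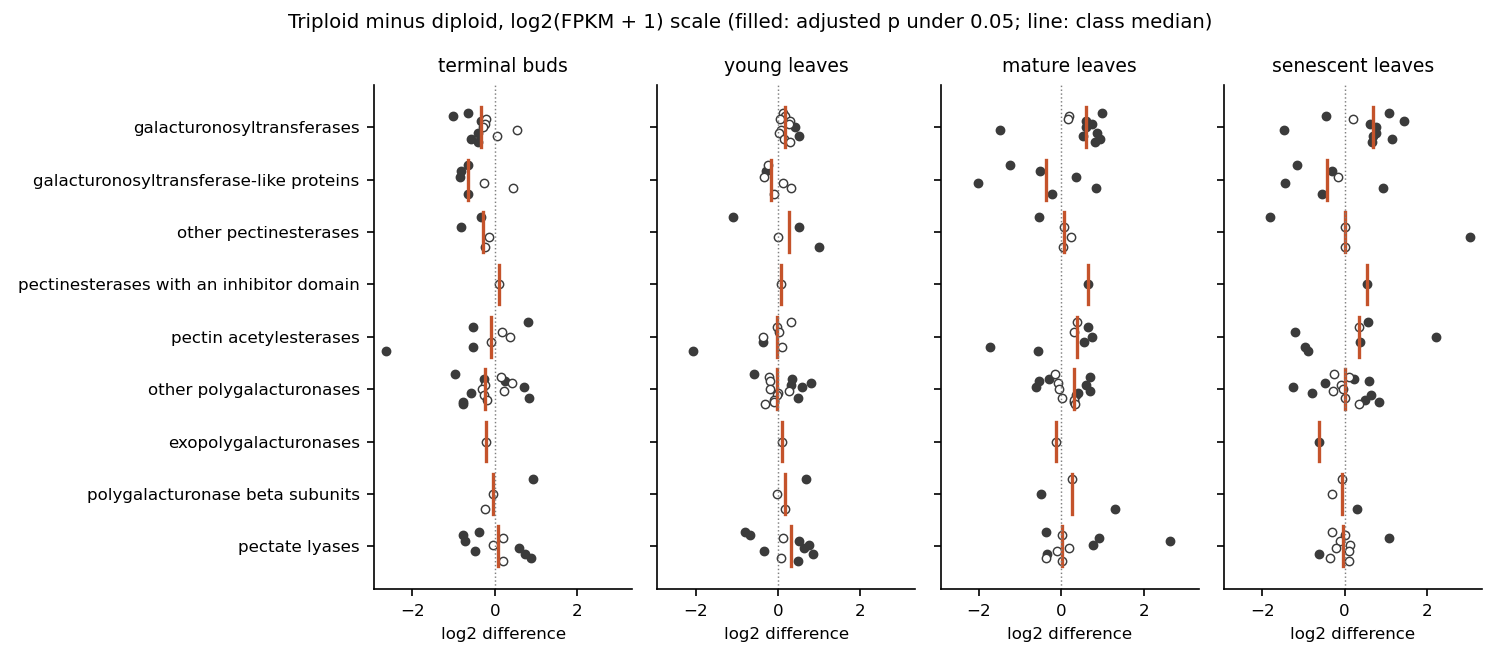
Triploid minus diploid log2 difference of every tested member by enzyme class at each of the 4 stages, with filled points for an adjusted p under 0.05 and a red line at the class median. The galacturonosyltransferases lie mostly above 0 in mature and senescent leaves, with class medians of 0.61 and 0.70, and the galacturonosyltransferase-like proteins mostly below it, with medians of −0.36 and −0.42.

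The galacturonosyltransferases, which synthesise the homogalacturonan chain, were all transcribed, and all 11 passed the filter. In the triploid 11 of 11 were higher in young leaves than in terminal buds, with a class median of 1.06 on the log2 scale, and in the diploid 8 of 11 were, with a median of 0.40. Scaling left 10 higher in the triploid, and 5 higher and 1 lower in the diploid. Among all genes, unscaled, 45% were higher at this step in the triploid and 33.4% in the diploid, or 31.1% and 26.6% after scaling. Against the diploid, 6 genes of the class were lower and none higher in triploid terminal buds (3 lower and 1 higher after scaling), 2 were higher in young leaves, and 8 were higher in mature leaves and 8 in senescent leaves on both scales, with 1 lower in mature and 2 lower in senescent leaves. Among all genes, 34.9% were lower in triploid terminal buds. The share of all genes higher was 11.4% in young, 42.4% in mature and 40.1% in senescent leaves. After scaling it was 30.1% in mature and 29.4% in senescent leaves. The summed level of the class was 116 ± 1.23 FPKM in triploid mature leaves, against 85 ± 5.24 FPKM in diploid mature leaves, and 62.1 ± 3.92 FPKM in triploid senescent leaves, against 36.8 ± 0.675 FPKM in diploid senescent leaves (SD, n = 3 each). After scaling these sums lay closer together, at 112 ± 2.53 FPKM in triploid mature leaves, against 105 ± 5.43 FPKM in diploid mature leaves, and at 58 ± 2.62 FPKM in triploid senescent leaves, against 43.2 ± 0.728 FPKM in diploid senescent leaves.

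The most abundant gene of the class, Eucgr.K02133, is annotated as galacturonosyltransferase 8, which in *Arabidopsis* is QUASIMODO1, needed for normal homogalacturonan content and cell adhesion. It had 33.6, 31.3 and 33.6 FPKM in triploid mature leaves, against 19.1, 20.2 and 15.6 FPKM in diploid mature leaves. The triploid libraries were all higher, and the log2 difference was 0.82 ± 0.14 (SE, limma adjusted p = 2.2e-05). In terminal buds the order was the other way, with 23.3, 24.9 and 20.9 FPKM in triploid terminal buds, against 30.8, 32.3 and 29.5 FPKM in diploid terminal buds (−0.41 ± 0.14, adjusted p = 0.018). Eucgr.I02091, annotated as galacturonosyltransferase 9, had 14.5, 13 and 13.8 FPKM in triploid senescent leaves, against 8.02, 8.86 and 7.45 FPKM in diploid senescent leaves, again with no overlap (0.70 ± 0.094, adjusted p = 1.5e-06), and it was also higher in triploid young leaves (0.50) and mature leaves (0.52).

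The gene raised most in triploid senescent leaves within the class was Eucgr.B01494, annotated as galacturonosyltransferase 6, at 8.75, 8.33 and 8.74 FPKM in triploid senescent leaves, against 2.62, 2.69 and 2.24 FPKM in diploid senescent leaves. The mean was 3.42 times higher in the triploid and the libraries were far apart (1.45 ± 0.12, adjusted p = 9.2e-10). Its level rose from mature to senescent leaves in both ploidies, 4.37-fold in the triploid and 2.64-fold in the diploid, while at this step 6 other members of the class fell in the triploid and 7 in the diploid. Eucgr.A00881 is annotated as galacturonosyltransferase 7, which in *Arabidopsis* anchors the catalytic galacturonosyltransferase 1 in the Golgi. It stood at 8.41, 9.79 and 9.43 FPKM in triploid mature leaves, against 4.34, 3.93 and 4.17 FPKM in diploid mature leaves (0.99 ± 0.16, adjusted p = 1.9e-05). In senescent leaves it was likewise higher in all 3 triploid libraries, at 6.86, 8.01 and 6.72 FPKM in triploid senescent leaves, against 2.51, 3.41 and 2.8 FPKM in diploid senescent leaves (1.07 ± 0.16, adjusted p = 7.5e-06). Eucgr.J01378 and Eucgr.D00963, annotated as galacturonosyltransferases 14 and 4, were higher in the triploid in mature leaves by 0.93 and 0.74 on the log2 scale. Eucgr.A01962, annotated as galacturonosyltransferase 15, was the gene of the class most reduced in triploid terminal buds, with 4.61, 5.04 and 3.41 FPKM in triploid terminal buds, against 9.05, 8.31 and 12.3 FPKM in diploid terminal buds (−1.02 ± 0.14, adjusted p = 6.2e-06), and no library overlapped. The remaining 3 genes of the class had group means between 0.921 and 13.5 FPKM.

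The galacturonosyltransferase-like proteins form a sister family, annotated here under numbers 1, 3, 7 and 9. Most of those tested were lower in the triploid at every stage except young leaves. Of the 6 tested, 4 were lower and none higher in terminal buds, 1 was lower in young leaves, 4 were lower and 2 higher in mature leaves, and 4 were lower and 1 higher in senescent leaves. After scaling none was higher in mature or senescent leaves, and 4 and 5 were lower. Among all genes, 14% were higher and 34.9% lower in terminal buds, and 11.4% and 11.9% in young leaves. These shares were 42.4% and 22.6% in mature leaves and 40.1% and 20% in senescent leaves. After scaling 33.8% of all genes were lower in mature and 30.4% in senescent leaves. The class sum was 107 ± 2.88 FPKM in triploid terminal buds, against 169 ± 9.6 FPKM in diploid terminal buds. In mature leaves it was 56.8 ± 3.41 FPKM in the triploid, against 92.4 ± 4.27 FPKM in the diploid (SD, n = 3 each).

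Eucgr.B02574, a galacturonosyltransferase-like 9 gene, was lower in the triploid at all 4 stages and its libraries never overlapped. In terminal buds it had 23.9, 21.2 and 22.9 FPKM in triploid terminal buds, against 39, 40.8 and 43.1 FPKM in diploid terminal buds (−0.83 ± 0.076, limma adjusted p = 1.8e-08). The differences in young, mature and senescent leaves were smaller, at −0.28, −0.51 and −0.31 on the log2 scale. The most abundant member of the family, Eucgr.K03516 (galacturonosyltransferase-like 7), had 36.2, 37.8 and 38 FPKM in triploid terminal buds, against 58.4, 62.2 and 58.7 FPKM in diploid terminal buds, and Eucgr.B03054 (galacturonosyltransferase-like 3) had 16.7, 17.6 and 17.7 FPKM in triploid terminal buds, against 29.4, 28.4 and 38.4 FPKM in diploid terminal buds. Both were lower in every triploid bud library, by −0.66 and −0.84 (adjusted p = 8.5e-06 and 8.8e-06). Eucgr.I01882, the other galacturonosyltransferase-like 9 gene tested, went the other way in senescent leaves, at 12.8, 16.3 and 19.4 FPKM in triploid senescent leaves, against 7.78, 8.81 and 7.05 FPKM in diploid senescent leaves (0.94 ± 0.27, adjusted p = 0.0046; edgeR adjusted p = 0.25).

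In *Arabidopsis*, galacturonosyltransferase 12 (IRX8) and galacturonosyltransferase-like 1 (PARVUS) are known from the secondary walls of xylem, where they take part in making xylan. The genes so annotated here were lower in the triploid in the older leaves. Eucgr.H01923, a galacturonosyltransferase-like 1 gene on chromosome 8 (19916973 to 19918196, plus strand), had 7.05, 8.08 and 7.82 FPKM in triploid mature leaves, against 35, 36.5 and 30.7 FPKM in diploid mature leaves. Every diploid library was far above every triploid one, the mean being 4.45 times lower in the triploid (−2.02 ± 0.14, adjusted p = 2.1e-10). The same held in senescent leaves, with 9.96, 9.01 and 9.74 FPKM in triploid senescent leaves, against 32.2, 25 and 26.6 FPKM in diploid senescent leaves (−1.45 ± 0.14, adjusted p = 1.9e-08), while in terminal buds and young leaves the libraries of the ploidies overlapped. Mature against young leaves were lower by −1.05 in the triploid and higher by 1.08 in the diploid, and the steps differed by −2.13 ± 0.20 (adjusted p = 7.2e-08).

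Eucgr.A00485, the other galacturonosyltransferase-like 1 gene, had 6.2, 6.51 and 4.74 FPKM in triploid mature leaves, against 14.4, 15.6 and 15.1 FPKM in diploid mature leaves (−1.24 ± 0.16, adjusted p = 8.1e-07) and was lower in triploid senescent leaves as well (−1.16). Eucgr.F00995, annotated as galacturonosyltransferase 12, had 5.68, 4.45 and 6.87 FPKM in triploid mature leaves, against 16.8, 17.7 and 17.8 FPKM in diploid mature leaves, all above the triploid ones (−1.48 ± 0.32, adjusted p = 0.00039). In senescent leaves its triploid libraries were lower but spread more, at 2.05, 0.317 and 0.701 FPKM in triploid senescent leaves, against 4.18, 4.28 and 4.4 FPKM in diploid senescent leaves (−1.48 ± 0.32, adjusted p = 0.00044). Beside these values, 15 of 19 genes of a lignified xylem list were tested, and the list summed to 120 FPKM in triploid mature leaves, against 140 FPKM in diploid mature leaves (117 to 125 and 134 to 149 by library), and to 42.4 and 43.0 FPKM in triploid and diploid senescent leaves. Within the list a cellulose synthase gene, Eucgr.D00476, averaged 18.8 FPKM in triploid mature leaves, against 59.2 FPKM in diploid ones, and a laccase-4 gene, Eucgr.G03028, 7.46 against 30.6 FPKM, but another cellulose synthase gene, Eucgr.E00821, averaged 61.4 FPKM in the triploid, against 20 FPKM in the diploid (these genes were chosen after their values were seen). No defining xylem gene was at 0 in both ploidies of mature leaves other than Eucgr.H00185, and the part of the xylem in these differences was not tested.

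**Figure D4:**
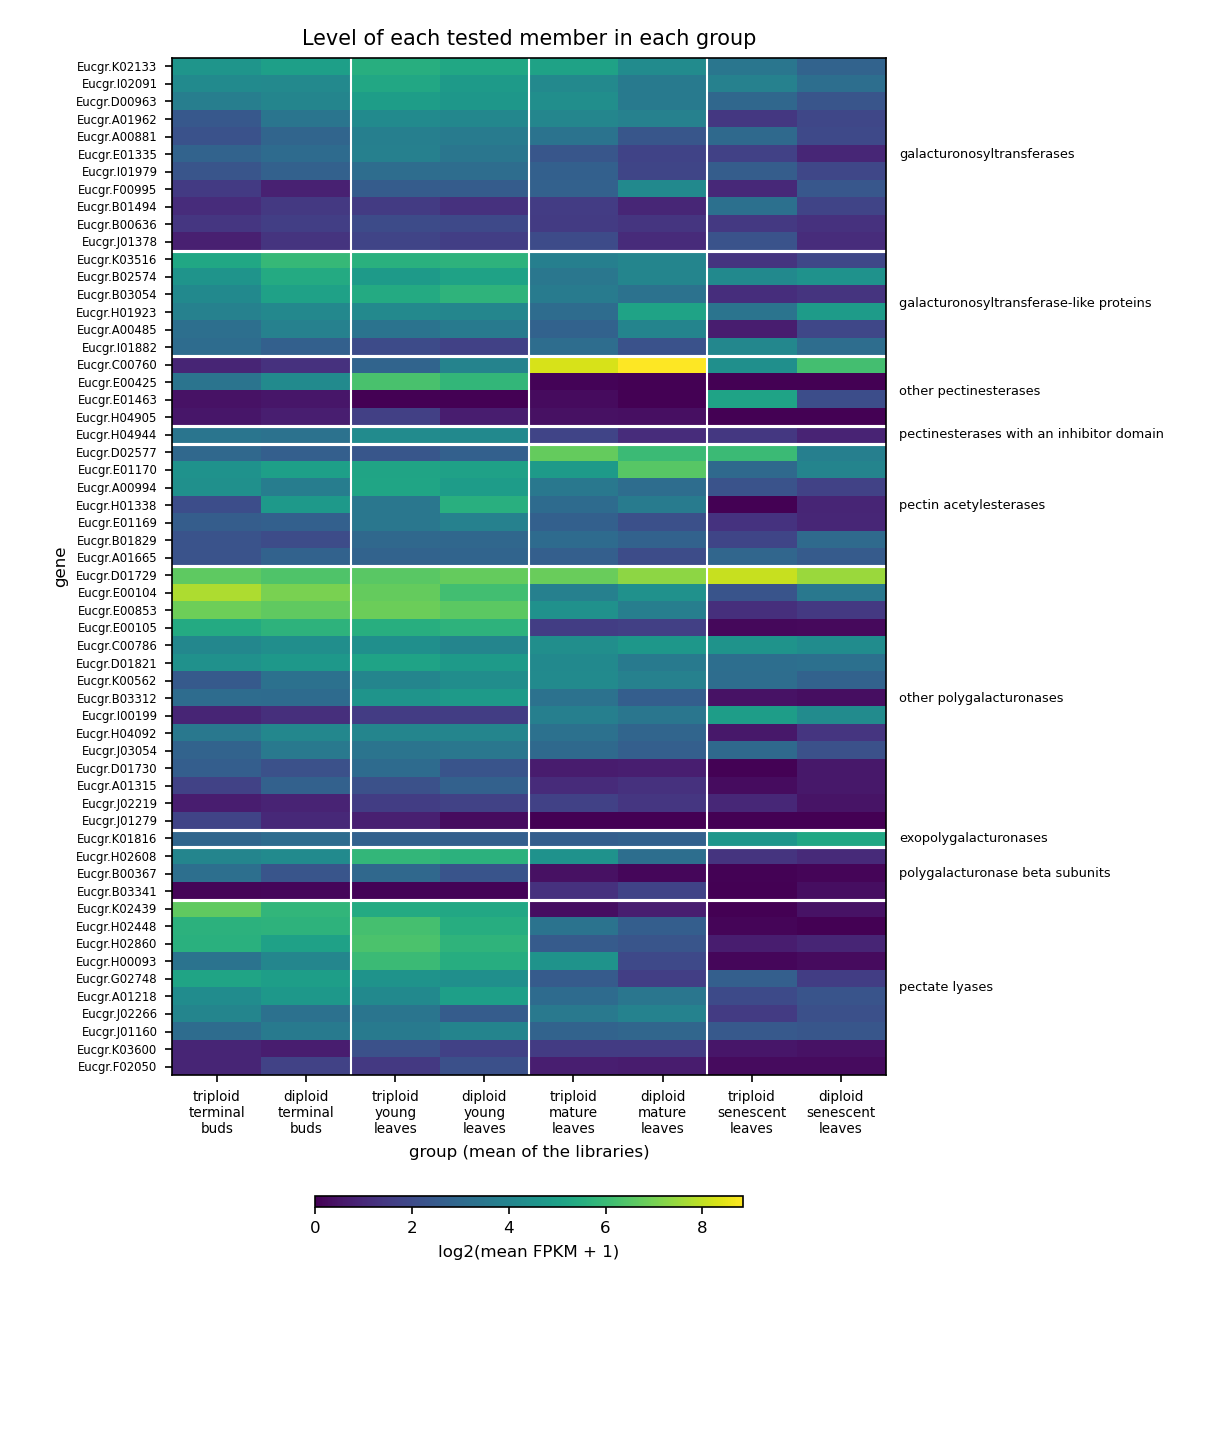
Heat map of log2(mean FPKM + 1) for the 58 tested members in the 8 groups, ordered by enzyme class, with the triploid and diploid columns of each stage side by side. Eucgr.C00760 is brightest in mature leaves, at a mean of 311 FPKM in the triploid and 456 FPKM in the diploid, and most pectate lyase rows are darker in senescent than in young leaves.

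Among the pectinesterases, which demethylate homogalacturonan, 4 of 9 genes passed the filter, and 3 of these had their highest mean at the same stage in both ploidies. This was mature leaves for Eucgr.C00760 (chromosome 3, 12935253 to 12938390, plus strand), young leaves for Eucgr.E00425 (chromosome 5, 4059822 to 4062924, minus strand; pectinesterase 68) and senescent leaves for Eucgr.E01463 (chromosome 5, 15593582 to 15595780, minus strand; pectinesterase 2). Eucgr.E01463 gave 62.9% of the class sum in triploid senescent leaves. In diploid senescent leaves 95.3% of the sum came from Eucgr.C00760. The annotation of Eucgr.C00760 and Eucgr.E01463 also lists pectinesterase inhibitor activity, and many plant pectinesterases are known to be made with an inhibitor region in front of the enzyme.

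Eucgr.C00760 had 310, 305 and 319 FPKM in triploid mature leaves, against 5.56, 6.76 and 6.27 FPKM in triploid young leaves. In the diploid it had 483, 482 and 404 FPKM in diploid mature leaves, against 11.8, 14.3 and 17.4 FPKM in diploid young leaves. The rise was 50.3-fold in the triploid and 31.5-fold in the diploid, on means of FPKM, and both lay far outside the spread of the libraries (log2 difference 5.44 ± 0.12 and 4.90 ± 0.12, limma adjusted p = 3.4e-20 and 1.6e-19). At each of the 4 stages every triploid library was below every diploid one. The difference was −0.34 ± 0.12 in terminal buds (adjusted p = 0.018, 0.08 after scaling), −1.09 ± 0.12 in young leaves (adjusted p = 4.2e-07) and −0.55 ± 0.12 in mature leaves (adjusted p = 0.00029). It was largest in senescent leaves, with 17.9, 22.5 and 19.6 FPKM in triploid senescent leaves, against 76.9, 68.4 and 70.3 FPKM in diploid senescent leaves, a mean 3.59 times lower in the triploid (−1.80 ± 0.12, adjusted p = 2.1e-11).

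Eucgr.E00425 had 73.8, 88.6 and 73.4 FPKM in triploid young leaves, against 9.35, 10.5 and 8.57 FPKM in triploid terminal buds. In the diploid it had 38.3, 53.9 and 77.5 FPKM in diploid young leaves, against 20.3, 13.7 and 19.5 FPKM in diploid terminal buds. All young leaf libraries lay above all bud libraries, and the mean was 8.31 times higher in the triploid and 3.17 times higher in the diploid. In mature leaves no library exceeded 0.143 FPKM and in senescent leaves all 6 were listed at 0. The triploid was lower in terminal buds (−0.83 ± 0.17, adjusted p = 0.00047; edgeR adjusted p = 0.058) and higher in young leaves (0.52 ± 0.17, adjusted p = 0.035), where a diploid library at 77.5 FPKM overlapped the triploid ones and edgeR gave an adjusted p of 0.32.

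Eucgr.E01463 was near 0 at the first 3 stages, with at most 0.78 FPKM in any library, and had 31.1, 29.1 and 41.7 FPKM in triploid senescent leaves, against 3.87, 3.53 and 2.32 FPKM in diploid senescent leaves. The triploid senescent libraries were all higher, 10.5-fold on the means (3.05 ± 0.19, adjusted p = 1.1e-11; edgeR, with 1 diploid senescent library, adjusted p = 0.036). Eucgr.H04905 (pectinesterase 8) was a gene of low level that was higher in triploid young leaves, at 1.97, 2.66 and 1.96 FPKM in triploid young leaves, against 1.07, 0.547 and 0.286 FPKM in diploid young leaves (0.99 ± 0.18, adjusted p = 0.00028; edgeR adjusted p = 0.23). Its mean over the 24 libraries, 0.567 FPKM, passed the filter only through triploid young leaves, so this call is not independent of the filter. The gene with an inhibitor domain named in its description, Eucgr.H04944 (pectinesterase/pectinesterase inhibitor 51), peaked in young leaves, at 18.2, 18.7 and 17.3 FPKM in triploid young leaves, against 15.8, 17.4 and 18 FPKM in diploid young leaves. These overlapped, whereas its lower levels in mature leaves did not, with 2.25, 2.15 and 3.01 FPKM in triploid mature leaves, against 1.18, 1.4 and 0.988 FPKM in diploid mature leaves (0.66 ± 0.11, adjusted p = 2.7e-05). For the 4 tested genes of the pectinesterase class, 2 were lower in triploid terminal buds (1 after scaling), 2 were higher (Eucgr.H04905 among them) and 1 lower in young leaves, 1 was lower in mature leaves, and 1 was higher and 1 lower in senescent leaves. Among all genes, 14% were higher and 34.9% lower in terminal buds, and 11.4% and 11.9% in young leaves. These shares were 42.4% and 22.6% in mature leaves and 40.1% and 20% in senescent leaves.

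**Figure D5:**
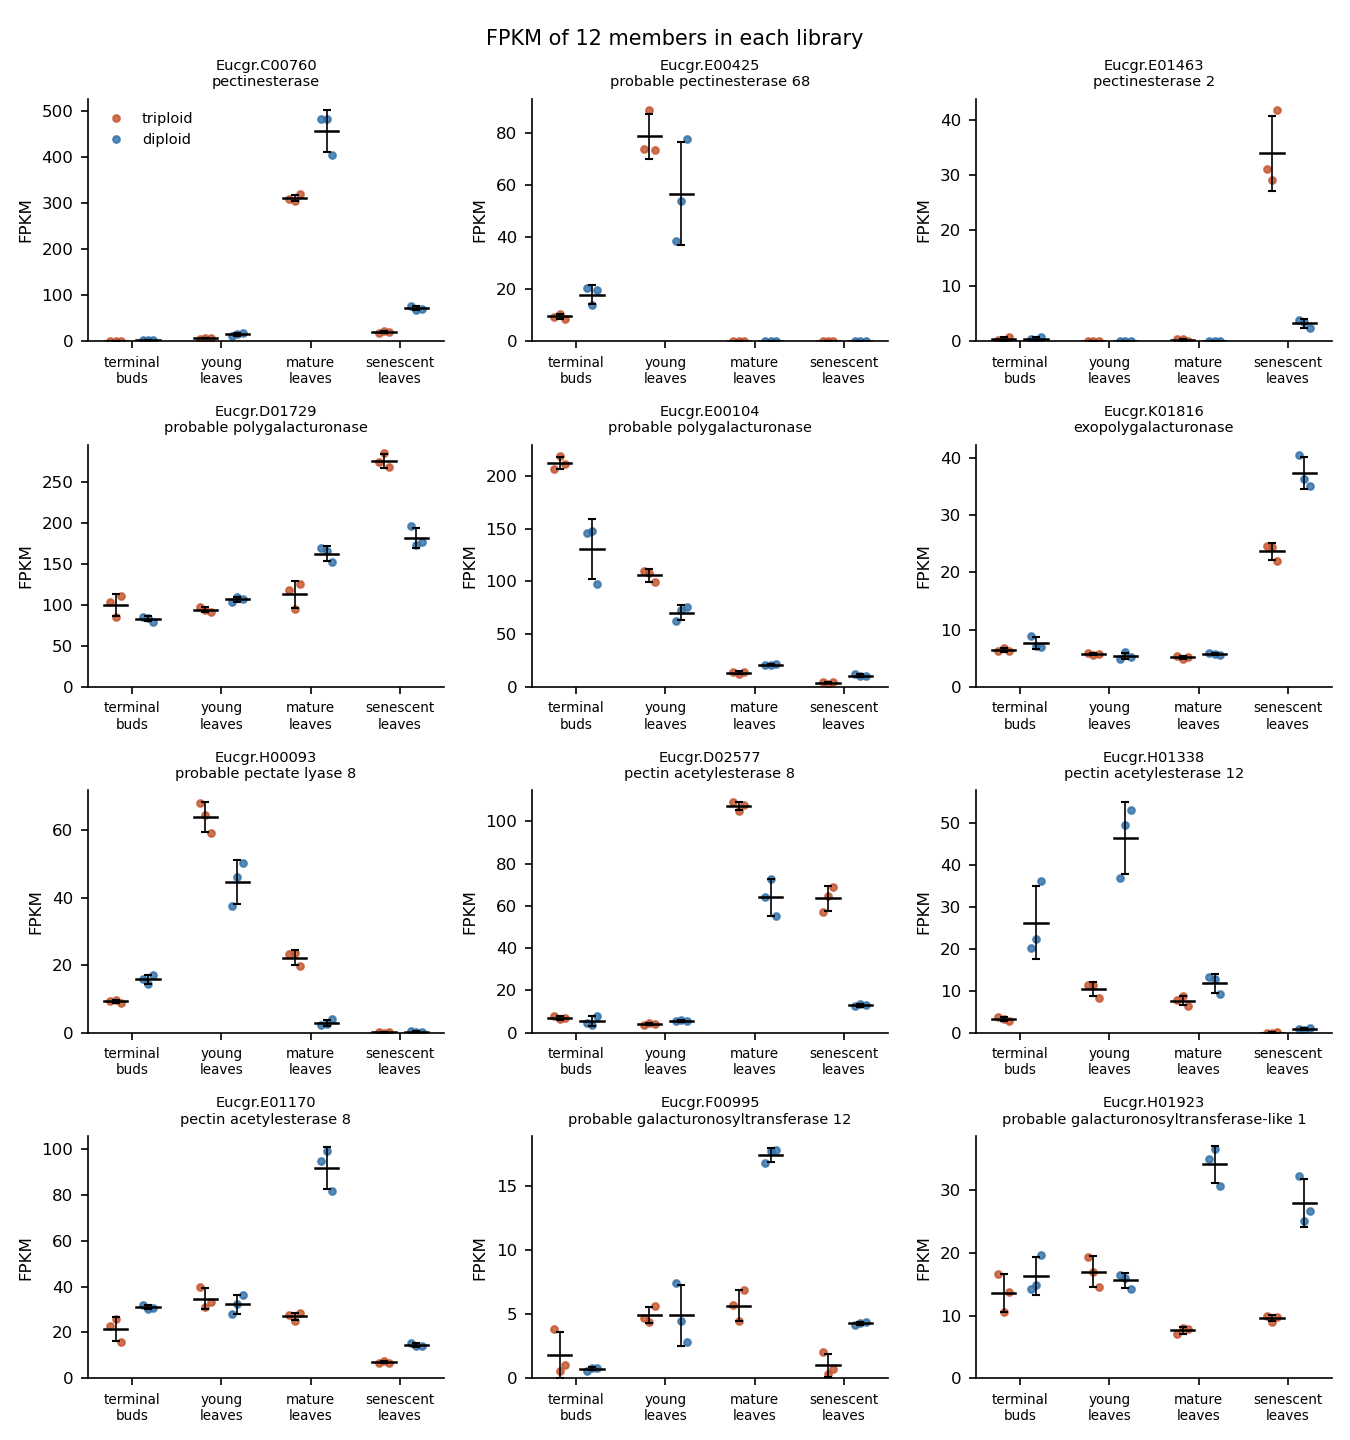
FPKM of 12 members in each of the 24 libraries, with the mean and SD of 3 libraries, at the 4 stages and with the triploid left of the diploid. Eucgr.E01463 stands at 29.1 to 41.7 FPKM in triploid senescent leaves and at 2.32 to 3.87 FPKM in diploid ones, and Eucgr.H00093 at 19.7 to 23.7 FPKM in triploid mature leaves and at 2.17 to 3.89 FPKM in diploid ones.

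Pectin acetylesterases remove acetyl groups from the galacturonic acid units. Of 7 tested, 6 were higher and 1 lower in young leaves than in terminal buds in the triploid (4 and 1 after scaling), and 4 were higher in the diploid. From mature to senescent leaves 6 fell in the triploid and 5 in the diploid. Among all genes, 45% and 33.4% were higher at the first of these steps in the triploid and diploid. At the last, 32.1% and 32.4% were lower. Between the ploidies 1 pectin acetylesterase was higher and 3 lower in terminal buds (2 each way after scaling), 2 were lower in young leaves, 3 were higher and 2 lower in mature leaves (2 each way after scaling), and 3 each way differed in senescent leaves, where scaling left 1 higher and 3 lower. Among all genes, 14% were higher and 34.9% lower in terminal buds, and 11.4% and 11.9% in young leaves. These shares were 42.4% and 22.6% in mature leaves and 40.1% and 20% in senescent leaves. The class sum in senescent leaves was 85.1 ± 6.4 FPKM in the triploid, against 43.8 ± 2.62 FPKM in the diploid. One gene gave 74.8% of the triploid sum, while the leading gene of the diploid sum, Eucgr.E01170, gave 33.5%.

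The leading gene of the triploid sum was Eucgr.D02577 (chromosome 4, 39748802 to 39752652, minus strand), annotated as pectin acetylesterase 8, whose *Arabidopsis* namesake is known to deacetylate wall pectin. It had 109, 105 and 108 FPKM in triploid mature leaves, against 3.8, 4.42 and 4.15 FPKM in triploid young leaves, a 26.1-fold rise. In the diploid it had 64, 72.9 and 55.3 FPKM in diploid mature leaves, against 5.41, 6.08 and 5.3 FPKM in diploid young leaves, a 11.5-fold rise. In senescent leaves it had 57.3, 64.9 and 68.8 FPKM in triploid senescent leaves, against 12.4, 13.7 and 12.9 FPKM in diploid senescent leaves. The means differed 4.9-fold and the libraries were far apart (2.21 ± 0.16, limma adjusted p = 1.1e-10), and in mature leaves the triploid was higher as well (0.75 ± 0.16, adjusted p = 0.00027). The fall from mature to senescent leaves was −0.75 in the triploid and −2.21 in the diploid, and the steps differed by 1.46 ± 0.22 (adjusted p = 3.5e-05).

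Eucgr.E01170, another pectin acetylesterase 8 gene (chromosome 5, 11386962 to 11399078, minus strand), showed the reverse in mature leaves, with 27.5, 25.2 and 28.3 FPKM in triploid mature leaves, against 94.9, 98.9 and 81.6 FPKM in diploid mature leaves. The triploid mean was 3.4 times lower (−1.73 ± 0.13, adjusted p = 8.4e-10). In young leaves the 2 ploidies had shared a range of 28.1 to 39.9 FPKM, and the step to mature leaves was −0.34 in the triploid and 1.48 in the diploid, a difference of −1.83 ± 0.19 (adjusted p = 2.4e-07). Eucgr.E01169, a further gene of the same annotation, lies 4.838 kb from Eucgr.E01170 on the same strand, and it differed from it in being higher in triploid mature leaves (0.56, adjusted p = 0.00053). Reads of such neighbouring copies may be shared between them, so their separate values are uncertain.

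Eucgr.H01338 (pectin acetylesterase 12; chromosome 8, 17828902 to 17833293, plus strand) was lower in the triploid at all 4 stages. In terminal buds it had 3.64, 3.29 and 2.78 FPKM in triploid terminal buds, against 20.2, 22.2 and 36.1 FPKM in diploid terminal buds, a mean 8.09 times lower in the triploid (−2.64 ± 0.19, adjusted p = 3.3e-10). In young leaves it had 11.3, 11.3 and 8.35 FPKM in triploid young leaves, against 36.8, 49.4 and 53.1 FPKM in diploid young leaves (−2.06 ± 0.19, adjusted p = 4.8e-08). No libraries overlapped at any stage, and the difference was smaller in mature leaves (−0.56) and in senescent leaves (−0.89). A second pectin acetylesterase 12 gene, Eucgr.B01829, was called between the ploidies only in senescent leaves, at 3.41, 2.23 and 2.12 FPKM in triploid senescent leaves, against 8.86, 6.73 and 6.23 FPKM in diploid senescent leaves (−1.21 ± 0.15, adjusted p = 3.7e-07). Eucgr.A00994 (pectin acetylesterase 3) was higher in triploid terminal buds (0.80, adjusted p = 0.0052), where diploid library 3, one of those that stood apart, reached 19.7 FPKM within the triploid range of 18.6 to 22.5 FPKM. The remaining gene tested had group means between 3.17 and 6.51 FPKM.

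Polygalacturonases hydrolyse demethylated homogalacturonan, and with 15 of 17 genes tested they were the largest class, with the highest summed FPKM at every stage except mature leaves, where pectinesterases were above them in both ploidies. In the triploid 9 were higher and 2 lower in young leaves than in terminal buds (6 and 4 after scaling), where 45% and 23.8% of all genes were, 10 were lower in mature than in young leaves, and 10 were lower in senescent than in mature leaves. In the diploid these counts were 5 higher and 3 lower (4 and 3 after scaling), 10 lower and 11 lower. Among all genes, 42.8% in the triploid and 55.6% in the diploid were lower in mature than in young leaves. At the next step 32.1% and 32.4% were lower. Between the ploidies 3 polygalacturonases were higher and 5 lower in terminal buds (5 and 4 after scaling), 5 were higher and 1 lower in young leaves (3 and 1 after scaling), 6 were higher and 3 lower in mature leaves (1 and 3 after scaling), and 5 were higher and 3 lower in senescent leaves (4 and 5 after scaling). Among all genes, 14% were higher and 34.9% lower in terminal buds, and 11.4% and 11.9% in young leaves. The unscaled shares in mature and senescent leaves lay near those of all genes, of which 42.4% were higher and 22.6% lower in mature leaves and 40.1% and 20% in senescent leaves.

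Eucgr.D01729 (chromosome 4, 30815807 to 30818198, plus strand) had the highest level of the class in the older leaves, and it was the main polygalacturonase of senescent leaves. There it had 274, 285 and 268 FPKM in triploid senescent leaves, against 196, 173 and 176 FPKM in diploid senescent leaves. The triploid libraries were all higher (0.60 ± 0.10, limma adjusted p = 1.9e-05), by 0.27 after scaling (adjusted p = 0.048), and edgeR with its 1 diploid senescent library gave an adjusted p of 0.34. In mature leaves the order was the reverse, with 118, 94.7 and 125 FPKM in triploid mature leaves, against 169, 166 and 152 FPKM in diploid mature leaves (−0.53 ± 0.10, adjusted p = 7.1e-05). The gene rose 2.44-fold from mature to senescent leaves in the triploid, while the diploid difference was 0.16 ± 0.10 (adjusted p = 0.17), and the 2 steps differed by 1.13 ± 0.14 (adjusted p = 2.7e-06). Eucgr.D01730, also annotated as a polygalacturonase, lies on the opposite strand and overlaps Eucgr.D01729 by 787 bases, and since the counting is not stated to use strand, reads of the overlap cannot be told apart.

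Eucgr.E00104 (chromosome 5, 932573 to 935466, minus strand) was the leading polygalacturonase of terminal buds. It had 207, 219 and 211 FPKM in triploid terminal buds, against 146, 148 and 97.6 FPKM in diploid terminal buds, with every triploid library higher (0.72 ± 0.13, adjusted p = 0.00015). In senescent leaves every triploid library was lower, at 4.26, 3.07 and 4.46 FPKM in triploid senescent leaves, against 12, 10.2 and 9.99 FPKM in diploid senescent leaves (−1.26 ± 0.13, adjusted p = 6.4e-08). In between, the triploid was higher in young leaves (0.58) and lower in mature leaves (−0.62), so the fall with leaf age was steeper in the triploid, and the steps from young to mature leaves differed by −1.20 ± 0.19 (adjusted p = 3.9e-05). Eucgr.E00105, on the same strand 2.346 kb away, and Eucgr.E00853 were also lower in mature than in young leaves of both ploidies. Eucgr.E00105 had 2.43, 1.97 and 1.67 FPKM in triploid mature leaves, against 45.4, 46.1 and 44.3 FPKM in triploid young leaves, and no ploidy difference of this gene passed the threshold at any stage. Eucgr.E00853 had 20.5, 21.9 and 21.7 FPKM in triploid mature leaves, against 13.2, 12.5 and 12.5 FPKM in diploid mature leaves (0.70 ± 0.12, adjusted p = 4.4e-05).

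A single polygalacturonase, Eucgr.I00199, rose at every step in both ploidies. Its means in the triploid were 0.906, 1.99, 13.2 and 29.2 FPKM in order of age, and in the diploid 1.29, 2.04, 10.1 and 18.3 FPKM. In senescent leaves it had 27.6, 31.9 and 28.1 FPKM in triploid senescent leaves, against 19.3, 18.2 and 17.3 FPKM in diploid senescent leaves, with no overlap (0.65 ± 0.11, adjusted p = 2.5e-05; edgeR adjusted p = 0.22). Eucgr.J01279, whose annotation lists organ shedding and fruit dehiscence, was instead confined in these libraries to the young organs, at 2.77, 2.81 and 1.99 FPKM in triploid terminal buds, against 1.77, 0.634 and 0.648 FPKM in diploid terminal buds (0.84 ± 0.16, adjusted p = 0.00017; edgeR adjusted p = 0.16), with at most 0.0558 FPKM in any mature leaf library and 0 in all senescent ones. The mean of Eucgr.J01279 over the 24 libraries, 0.565 FPKM, passed the filter only through triploid terminal buds. Its call there, counted above, is thus not independent of the filter. Eucgr.B03312, annotated after the *Arabidopsis* polygalacturonase At1g48100, had its highest means in young leaves, and in mature leaves it had 8.36, 10 and 8.55 FPKM in triploid mature leaves, against 4.25, 5.02 and 6.32 FPKM in diploid mature leaves (0.70 ± 0.23, adjusted p = 0.011). Another gene annotated after At1g48100, Eucgr.H04092, was lower in triploid senescent leaves, at 0.721, 0.489 and 0.29 FPKM in triploid senescent leaves, against 1.27, 1.26 and 2.24 FPKM in diploid senescent leaves (−0.78 ± 0.14, adjusted p = 5.6e-05).

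Eucgr.C00786 was called at all 4 stages with differences that were small and alternated in direction. It was lower in triploid terminal buds (−0.26) and mature leaves (−0.29) and higher in triploid young leaves (0.35) and senescent leaves (0.23), and after scaling the value in senescent leaves changed sign (−0.084, adjusted p = 0.38). The antisense neighbour of Eucgr.D01729, Eucgr.D01730, had 7.32, 7.33 and 7.94 FPKM in triploid young leaves, against 3.51, 3.82 and 4.39 FPKM in diploid young leaves (0.80 ± 0.19, adjusted p = 0.0046; edgeR adjusted p = 0.094). Eucgr.A01315 was the polygalacturonase most reduced in triploid terminal buds, at 1.82, 3.25 and 2.01 FPKM in triploid terminal buds, against 4.6, 4.45 and 7.97 FPKM in diploid terminal buds (−0.97 ± 0.20, adjusted p = 0.00038), with every triploid library below every diploid one. The remaining 4 genes of the class had group means between 0.385 and 34 FPKM.

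Exopolygalacturonases release single galacturonic acid units from the chain end, and several are known from pollen. In these organs 5 of 7 were listed at 0 in every library and 1 passed the filter. The class rests on the gene descriptions. The expressed gene, Eucgr.K01816 (chromosome 11, 23681270 to 23690917, minus strand), is described as an exopolygalacturonase but carries the enzyme number of the endo-acting polygalacturonases, while the other 6 carry the exo number, as do 5 genes described as polygalacturonases, so its mode of cutting is not settled by the annotation. It had 24.6, 24.4 and 22 FPKM in triploid senescent leaves, against 5.37, 4.9 and 5.26 FPKM in triploid mature leaves. In the diploid it had 40.5, 36.3 and 35.1 FPKM in diploid senescent leaves, against 5.92, 5.77 and 5.55 FPKM in diploid mature leaves. Senescent leaves were higher by 4.57-fold in the triploid and 6.49-fold in the diploid, and no other stage exceeded 8.91 FPKM in any library. Within senescent leaves every triploid library was lower, with a log2 difference of −0.63 ± 0.10 (limma adjusted p = 8.9e-06), and the step differed between the ploidies by −0.51 ± 0.14 (adjusted p = 0.0091).

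The polygalacturonase beta subunits are non-catalytic wall proteins, known from tomato fruit, where one binds a polygalacturonase. The main one, Eucgr.H02608 (chromosome 8, 35084314 to 35086776, plus strand), peaked in young leaves, at 51.3, 62.8 and 54.7 FPKM in triploid young leaves, against 39.2, 50.3 and 62.5 FPKM in diploid young leaves, where the ploidies overlapped. In mature leaves it had 22.3, 21.5 and 20.7 FPKM in triploid mature leaves, against 7.62, 9.16 and 7.43 FPKM in diploid mature leaves, a 2.66-fold higher mean in the triploid (1.31 ± 0.13, adjusted p = 3.6e-08). The fall from young to mature leaves was thus smaller in the triploid, and the steps differed by 1.15 ± 0.19 (adjusted p = 5.6e-05). Eucgr.B00367, of the same annotation, was higher in triploid terminal buds, at 7.68, 9.36 and 8.07 FPKM in triploid terminal buds, against 4.54, 4.45 and 3 FPKM in diploid terminal buds (0.92 ± 0.15, adjusted p = 4.2e-05), and in triploid young leaves (0.67 ± 0.15, adjusted p = 0.0026). Eucgr.B03341, annotated as the non-catalytic subunit AroGP2, was the only tested beta subunit gene higher in mature than in young leaves, by 1.17 in the triploid and 1.63 in the diploid on the log2 scale, though its highest group mean was 2.41 FPKM. Its mean over the 24 libraries, 0.55 FPKM, passed the filter only through mature leaves, so these calls are not independent of the filter.

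Pectate lyases, which cleave demethylated pectin in a calcium-dependent reaction, were mostly lower at both steps of leaf ageing. Of 10 tested, 9 were lower in mature than in young leaves in the triploid and 8 in the diploid, with class medians of −1.30 and −2.15 on the log2 scale, and 8 were lower in senescent than in mature leaves in each ploidy, with none higher (7 in the triploid and 8 in the diploid after scaling). Among all genes, 42.8% in the triploid and 55.6% in the diploid were lower in mature than in young leaves. At the next step 32.1% and 32.4% were lower. Between terminal buds and young leaves 6 pectate lyases were higher and 3 lower in the triploid, and 5 were higher and 2 lower in the diploid, but scaling turned the balance to 3 higher and 4 lower in each. The unscaled shares of all genes higher and lower were 45% and 23.8% in the triploid, and 33.4% and 26.6% in the diploid. Between the ploidies 3 pectate lyases were higher and 4 lower in terminal buds (4 and 3 after scaling), 5 were higher and 3 lower in young leaves (4 and 3 after scaling), 3 were higher and 2 lower in mature leaves (3 each way after scaling), and 1 each way differed in senescent leaves (1 higher and 3 lower after scaling). Among all genes, 14% were higher and 34.9% lower in terminal buds, and 11.4% and 11.9% in young leaves. These shares were 42.4% and 22.6% in mature leaves and 40.1% and 20% in senescent leaves.

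The ploidy difference of Eucgr.H00093 in mature leaves was the largest of any member at that stage. This gene (chromosome 8, 4676090 to 4680266, plus strand; pectate lyase 8) had 23.4, 23.7 and 19.7 FPKM in triploid mature leaves, against 2.17, 2.43 and 3.89 FPKM in diploid mature leaves. The triploid mean was 7.87 times higher, and limma and edgeR both called it (2.63 ± 0.15, adjusted p = 4.4e-12; edgeR adjusted p = 1.8e-07). In terminal buds the triploid libraries were the lower ones, at 9.51, 9.58 and 8.64 FPKM in triploid terminal buds, against 15.8, 14.4 and 17.2 FPKM in diploid terminal buds (−0.71 ± 0.15, adjusted p = 0.00037; edgeR adjusted p = 0.062). In young leaves they were higher, at 68.1, 64.7 and 59.3 FPKM in triploid young leaves, against 37.7, 46.2 and 50.4 FPKM in diploid young leaves (0.51 ± 0.15, adjusted p = 0.013; edgeR adjusted p = 0.19), and in senescent leaves both ploidies were below 0.4 FPKM. Its fall from young to mature leaves was −1.48 in the triploid and −3.60 in the diploid, a difference between the steps of 2.11 ± 0.21 (adjusted p = 1e-07).

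Eucgr.H02860, which shares the pectate lyase 8 annotation, did not show this in mature leaves, where it had 4.22, 5.65 and 4.4 FPKM in triploid mature leaves, against 3.99, 4.38 and 3.71 FPKM in diploid mature leaves. It was higher in triploid young leaves, at 81.2, 83.1 and 72.6 FPKM in triploid young leaves, against 38.3, 53.6 and 64.4 FPKM in diploid young leaves (0.62 ± 0.15, adjusted p = 0.0055). Eucgr.H02448 (pectate lyase 5) was higher in the triploid in young leaves, with 77.5, 74.2 and 69.5 FPKM in triploid young leaves, against 39.2, 43.6 and 49.3 FPKM in diploid young leaves (0.74 ± 0.14, adjusted p = 0.00073), and in mature leaves (0.77, adjusted p = 8.1e-05). The other pectate lyase 5 gene, Eucgr.G02748, was not called between mature and senescent leaves in either ploidy (log2 difference 0.12 in the triploid and −0.043 in the diploid). In senescent leaves it had 5.92, 5.04 and 5.13 FPKM in triploid senescent leaves, against 2.08, 1.73 and 2.21 FPKM in diploid senescent leaves, and every triploid library was higher (1.08 ± 0.13, adjusted p = 2e-07).

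Eucgr.K02439 (pectate lyase 12), a short gene model of 465 bases on chromosome 11, had the highest level of the class in terminal buds, at 121, 85.7 and 99.2 FPKM in triploid terminal buds, against 48.5, 62.6 and 53.3 FPKM in diploid terminal buds. The triploid libraries were all higher (0.88 ± 0.23, adjusted p = 0.0035), but the call was lost with a pseudocount of 0.1 (adjusted p = 0.31). Eucgr.J02266 changed order with age. It was higher in triploid terminal buds, at 15, 15.3 and 15.4 FPKM in triploid terminal buds, against 9.99, 9.15 and 7.13 FPKM in diploid terminal buds (0.74 ± 0.12, adjusted p = 3.3e-05), and lower in triploid senescent leaves, at 2.14, 1.73 and 1.88 FPKM in triploid senescent leaves, against 3.51, 3.28 and 3.63 FPKM in diploid senescent leaves (−0.62 ± 0.12, adjusted p = 0.00014). Eucgr.A01218 (pectate lyase 4) was the member of the class most reduced in triploid young leaves, at 16.2, 17.6 and 17.9 FPKM in triploid young leaves, against 31.6, 31.6 and 29.6 FPKM in diploid young leaves (−0.81 ± 0.15, adjusted p = 0.00044). Eucgr.F02050 was lower in triploid terminal buds (−0.77) and young leaves (−0.68), and the remaining 2 genes of the class had group means between 0.349 and 14.8 FPKM.

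Whether a step between stages differed with ploidy was tested by the interaction term. For young leaves against terminal buds 19 members had a more positive step in the triploid and 3 a more negative one, where 19.4% and 6.57% of all genes did (26% either way), and scaling left 12 and 4. For mature against young leaves the counts were 19 and 10, against 34.9% and 16.3% of all genes (51.1% either way), with 11 and 17 after scaling. For senescent against mature leaves they were 8 and 12, against 13.6% and 12.1% of all genes (25.7% either way), with 8 and 10 after scaling. The scaled shares of all genes were 11.1% and 11.2%, 22.5% and 24.5%, and 14.7% and 12% at the 3 steps in order of age. At the last of these steps 34 members were lower in senescent than in mature leaves in both ploidies, a count without a share over all genes.

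The 19 members below the filter had means under 0.5 FPKM over the 24 libraries, and 10 of them were listed at 0 in every library. The highest single value among them was 1.46 FPKM, of the pectinesterase gene Eucgr.G01685. They were 6 exopolygalacturonases, 5 pectinesterases, 2 polygalacturonases, 2 pectate lyases, 2 beta subunits, 1 galacturonosyltransferase-like gene and 1 pectin acetylesterase, and they are not part of the counts above. Within 50 kb of each other on a chromosome lay 6 pairs of members, each pair of one class.

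Other genes of pectin metabolism were taken by their annotation, with the members left out. Putative methyltransferases of the PMT family, only some members of which are known in *Arabidopsis* to act on homogalacturonan, comprised 23 genes, of which 21 were tested. In mature leaves 17 were higher and none lower in the triploid, with a median of 0.73 on the log2 scale and 15 higher after scaling, beside the 42.4% of all genes that were higher. In senescent leaves 12 were higher and 1 lower (6 and 2 after scaling), in young leaves 7 and 1, and in terminal buds 2 and 7 (4 and 3 after scaling). Of all genes 40.1% were higher and 20% lower in senescent leaves, 11.4% and 11.9% in young leaves, and 14% and 34.9% in terminal buds. The summed level of the 23 methyltransferase genes was 251 FPKM in triploid mature leaves, against 138 FPKM in diploid mature leaves. Enzymes that make the nucleotide sugars for pectin (8 genes tested) gave 3 higher and 2 lower in mature leaves, and 2 and 4 after scaling. Wall-associated kinases, receptors that bind pectin, gave 6 higher and 2 lower of 13 tested in mature leaves (6 and 3 after scaling) and 5 and 3 in senescent leaves (4 and 3 after scaling). The called shares of both lists in mature leaves lay near the 64.9% of all genes called at that stage. The called share of the kinases in senescent leaves lay near the 60.1% of all genes called there.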

How the data were processed

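RNA sequencing libraries of 4 stages, from terminal buds to senescent leaves, in both ploidies were grouped by ploidy and stage as labelled, with 3 libraries in each of 8 groups. Reads were aligned by the authors with HISAT2 2.0 to the *E. grandis* genome and quantified with StringTie 1.3.0 (Bowtie 0.12.2 is named too), and the deposited values used here are FPKM of 26033 genes, normalized to transcript length and library size. The notes name a mouse build, mm8, although gene identifiers are those of *E. grandis*, so the build of the coordinates is uncertain. The labels give poly(A) selection, whereas the paper's methods give a total RNA kit. Unnormalized read counts deposited by the authors were used for 22 libraries, since 1 of the 3 diploid senescent leaf libraries had a matching column. A further 2 count columns matched no library and were not used. The total count was 38395755 to 64400745 per library (median 56603217), and FPKM precision is limited by this depth.

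FPKM of 0.0001 or less were set to 0 (130519 values). The 19174 genes whose mean reached 0.5 FPKM were tested on log2(FPKM + 1) with limma 3.58.1 in R 4.3.3, with a variance trend, 8 group means over all 24 libraries and Benjamini-Hochberg adjustment. Contrasts were triploid against diploid at each stage, neighbouring stages within each ploidy, and the difference of each step between ploidies. Alternatives were a pseudocount of 0.1, no filter, a mean of at least 1 FPKM, median ratio scaling, a replicate block, leaving out libraries, edgeR 4.0.16 (quasi-likelihood, TMM) and DESeq2 1.42.0 on counts (total of at least 10). The limma and edgeR fits were tested on simulated data. Tables and plots were made with Python 3.11.15, pandas 2.3.3, numpy 2.4.6 and matplotlib 3.10.9.

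Members were chosen by their description, and classes, marker lists and pathway lists by patterns on it. The members and lists were chosen with earlier results of these data known. Genes named are the 5 members of each class with the highest mean FPKM, and for each contrast up to 4 called members in each direction with the largest log2 difference whose libraries do not overlap (for differences between steps, the largest difference alone). Any other gene was named after its values were seen.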

Additional observations from a re-analysis of the deposited data

Results flagged for a closer look

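The steps between stages that differed most between the ploidies, up to 4 genes in each direction for each step, were singled out by the interaction term of the limma fit, so each value is the log2 step in the triploid minus that in the diploid, with an adjusted p under 0.05 over all genes. Groups of 3 libraries are too small to test a single library for standing apart. The steps share groups with each other and with the ploidy comparisons, so they do not count as independent.

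For young leaves against terminal buds, the step was more positive in the triploid for the pectinesterase gene Eucgr.E00425 (1.35), the pectate lyase gene Eucgr.H00093 (1.23), the pectinesterase gene Eucgr.H04905 (1.22) and the galacturonosyltransferase gene Eucgr.A01962 (1.19). Eucgr.H04905 stayed below 3 FPKM in every library and passed the filter only through triploid young leaves. The step was more negative in the triploid for the pectinesterase gene Eucgr.C00760 (−0.75), the pectin acetylesterase gene Eucgr.D02577 (−0.72) and the polygalacturonase gene Eucgr.D01729 (−0.45). Under edgeR the difference of Eucgr.E00425 had an adjusted p of 0.058 and that of Eucgr.H04905 of 0.3. The difference of Eucgr.D02577 lost its call without triploid terminal bud library 1 (adjusted p = 0.056) and without diploid terminal bud library 2 (0.059), and that of Eucgr.D01729 without triploid terminal bud libraries 1 (0.053) or 3 (0.071) and without the 3 libraries that stood apart (0.063).

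For mature against young leaves, the step was more positive in the triploid for Eucgr.H00093 (2.11), the pectin acetylesterase gene Eucgr.H01338 (1.51), the beta subunit gene Eucgr.H02608 (1.15) and Eucgr.D02577 (1.11). It was more negative for the galacturonosyltransferase-like 1 gene Eucgr.H01923 (−2.13), the pectin acetylesterase gene Eucgr.E01170 (−1.83), the galacturonosyltransferase 12 gene Eucgr.F00995 (−1.56) and the polygalacturonase gene Eucgr.E00104 (−1.20). In Eucgr.H01923 the triploid fell at this step while the diploid rose, and the same call of opposite directions was made for 3 members in all. The difference of Eucgr.F00995 had an adjusted p of 0.067 under edgeR and of 0.055 with a pseudocount of 0.1.

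For senescent against mature leaves, the step was more positive in the triploid for the pectinesterase gene Eucgr.E01463 (2.81), Eucgr.D02577 (1.46), Eucgr.D01729 (1.13) and the galacturonosyltransferase 6 gene Eucgr.B01494 (0.84). It was more negative for Eucgr.H00093 (−2.73), the pectin acetylesterase gene Eucgr.B01829 (−1.52), Eucgr.C00760 (−1.25) and the polygalacturonase gene Eucgr.H04092 (−1.19). The value of Eucgr.E01463 depended on the scale, since the gene was near 0 in mature leaves of both ploidies and was listed at 0 in 1 library of each. With a pseudocount of 0.1 it was 2.27 (adjusted p = 0.052) and under edgeR, with 1 diploid senescent library, 0.63 (adjusted p = 0.97). The difference of Eucgr.B01494 had an adjusted p of 0.11 under edgeR.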

How the results depend on the processing

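The number of members called stayed within 1.5 times the main count in 11 of 13 comparisons under every alternative run. In young leaves, triploid against diploid, the 23 calls became 14 (10 higher and 4 lower) with a pseudocount of 0.1, 13 (7 higher and 6 lower) with edgeR and 13 with edgeR without a filter, and leaving out 1 library gave 14 to 26, the lowest without triploid young leaf library 1. For the difference between ploidies in the step from terminal buds to young leaves, the 22 calls became 12 with edgeR and 11 with edgeR without a filter, and leaving out 1 library gave 17 to 24. Of 3393 values of the named genes under the alternatives, each in the comparison that named the gene, 40 lost the call and none changed direction. These genes were named for calls and large differences in the same data, and most alternatives left out 1 library. The count therefore says little about how other members would fare. Over all 13 comparisons, 5 of 465 called member values changed sign after scaling, none of them with a call on the scaled values, among them Eucgr.C00786 in senescent leaves (−0.084, against 0.23 unscaled). With the replicate block the 4 ploidy comparisons gave 31, 20, 37 and 35 calls in order of age. The correlation of deviations between equally numbered libraries of the ploidies was −0.204 to 0.103 (12 pairs, of which 5 matched best by number), so the numbers did not pair the ploidies. Between neighbouring stages of a ploidy it was −0.312 to 0.317. There every triploid young leaf library matched best the bud library of its number, at 0.029 to 0.062, but no triploid senescent library matched by number. A pairing across stages is thus not settled. After scaling, 53 group sums, counting both those of single classes and those of all members, moved by more than the SD of their libraries, as scaling multiplies every gene of a library by the same factor. The count models hold 1 diploid senescent library, which is assumed to vary like the other groups. Genes under about 1 FPKM are limited by depth and by the pseudocount.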

Other observations

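Enzymes that trim the side chains of pectin, beta-galactosidases and arabinofuranosidases, were taken by annotation as a further list of 22 genes, of which 18 were tested. In mature leaves 12 were higher in the triploid and none lower (11 and 2 after scaling), with a median of 0.79 on the log2 scale, where 42.4% of all genes were higher and 22.6% lower. In young leaves 10 were higher and 1 lower on both scales, with a median of 0.45, where 11.4% and 11.9% of all genes were, and in terminal buds 2 were higher and 6 lower (4 and 6 after scaling). Of all genes 14% were higher and 34.9% lower in terminal buds. In senescent leaves 7 were higher and 1 lower (6 and 2 after scaling). The share higher lay near that of all genes, of which 40.1% were higher and 20% lower. The list summed to 432 ± 20.7 FPKM in triploid senescent leaves, against 261 ± 13.1 FPKM in diploid senescent leaves (SD, n = 3 each). Much of this sum came from 2 genes, named after their values were seen. Eucgr.C03896 averaged 156 FPKM in triploid senescent leaves, against 38.3 FPKM in diploid senescent leaves, and Eucgr.A02178 averaged 203 FPKM in the triploid, against 172 FPKM in the diploid. Of 3 genes of rhamnogalacturonan metabolism, 2 were higher in triploid mature leaves (1 after scaling).

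One gene of the methyltransferase list, Eucgr.D02245, stood out from the rest by its stage. It averaged 55.8 FPKM in triploid senescent leaves, against 92.9 FPKM in diploid senescent leaves, and under 2 FPKM at each of the other stages in either ploidy. The gene was chosen after its values were seen, and no explanation was tested.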
